A study of Mus musculus with 14 samples.

Results

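The Hedgehog signalling genes described here are 10 listed genes of the ligand, its receptors, its transducers and its targets: Shh, Ptch1, Boc, Cdon, Hhip, Smo, Sufu, Gli1, Gli2 and Gli3. They were chosen by name, and each was represented by 1 of the 59796 loci of the gene table, the locus with the highest mean among those carrying the symbol. All 10 were found, and 9 of them passed the filter of a mean of at least 10 normalized fragments. Shh was below it. RNA-seq was performed on mouse hippocampi dissected from embryos between E16 and E18. The 2 models of Down syndrome were each compared with their own wild-type littermates. In 189N3 mice an extra copy of Dyrk1a is carried on a bacterial artificial chromosome, and 3 libraries of these mice stood against 3 of littermates. In Dp(16)1Yey/+ mice the chromosome 16 region syntenic to human chromosome 21 is present in an extra copy, and 4 libraries stood against 4. Each model is a single line whose heterozygous carriers were, by the methods given for its cultures, crossed with C57BL6 mice. None of the 10 genes lies in the triplicated region, which runs from Lipi to Zbtb21 at chr16:75540514-97962622 (GRCm38). The number of embryos in the methods equals the number of libraries in each group, though no source ties a library to a single embryo; p-values measure the spread between these samples.

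Hedgehog ligands bind Patched receptors, with the help of coreceptors such as Boc and Cdon. In the absence of ligand, Patched holds Smoothened in check, and Sufu retains the Gli transcription factors and favours the processing of Gli3, and to a lesser degree of Gli2, to repressors. Once Smoothened is released at the primary cilium, Gli activators switch on Gli1, Ptch1 and Hhip, whose transcripts are read as measures of pathway activity and whose Ptch1 and Hhip products damp it. In the embryonic forebrain Shh patterns the ventral telencephalon and drives the appearance of oligodendrocyte precursors, and in the hippocampus it maintains the neural stem cells of the dentate gyrus.

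A few features of the libraries bear on the results. The libraries held 20809135 to 29098454 fragments. Dyrk1a was measured at 4248, 3938 and 5877 normalized fragments in the 189N3 libraries and at 2448, 2977 and 2126 in their littermates, so that the groups did not overlap. Across 85 tested genes of the triplicated region, the median difference from littermates on the log2 scale was 0.69, 0.58 and 0.40 in Dp(16)1Yey/+ replicates 0, 2 and 3. It was 0.10 in the library labelled Dp(16)1Yey replicate 1, which therefore showed little of the extra dosage its label gives. The 4 littermate libraries of this line formed pairs: replicates 0 and 1, and replicates 2 and 3, differed by 1.64 and 2.05 times the counting noise, against 32.6 to 36.8 times between the pairs. The hippocampal markers Zbtb20 (1789 to 7734) and Prox1 (161 to 856) were found in every library. Of the genes of 13 marker lists tested, 0 of 64 in 189N3 and 0 of 65 in Dp(16)1Yey/+ passed an adjusted p of 0.05 in limma. At an unadjusted p under 0.05, all 5 erythroid, 4 of 5 skin and 3 of 6 connective tissue markers were lower in 189N3. So were 1 of 5 ventral telencephalon and 1 of 2 diencephalon markers. In Dp(16)1Yey/+ 2 of 6 connective tissue, 1 of 5 erythroid, 1 of 3 cartilage and 1 of 7 hippocampal markers were higher at this threshold, and all 5 erythroid markers had differences above 0.

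Shh, the ligand (chr5:28456815-28467256, minus strand, ENSMUSG00000002633), was close to the limit of detection. All 14 libraries together held 91 Shh fragments, 0 to 22 in each. The 189N3 libraries had 3.38, 0.816 and 8.30 normalized fragments and their littermates 0.866, 10.8 and 1.21. The Dp(16)1Yey/+ libraries had 8.90, 0, 2.04 and 7.04, and their littermates 6.18, 1.98, 17.3 and 22.2. The count of 0, in the library labelled replicate 1, allows up to 3 fragments. The highest values came from 1 of the 2 nearly alike littermate pairs, and the groups overlapped in both models, with exact two-sided permutation p of 1.00 in 189N3 and 0.314 in Dp(16)1Yey/+. No difference in Shh was detected among so few fragments. In bulk tissue, fewer expressing cells and less RNA per cell cannot be told apart, for Shh as for the genes that follow.

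Levels of different genes were compared as normalized fragments per kb of annotated exon, averaged over the 14 libraries. Cdon was highest at 349 per kb (range 183 to 730.1), followed by Smo at 159.9, Gli3 at 122 and Boc at 92.8. Ptch1 stood at 36.9 and Sufu at 35.5, Gli2 at 15.7, Gli1 at 8.36, Hhip at 8.19 and Shh at 2.28. Coreceptor and transducer transcripts thus stood above those of the ligand and of the target Gli1, while the target Ptch1 stood level with Sufu and above Gli2. Most steps of this order were seen in at least 11 of the 14 libraries. Cdon exceeded Smo in 14, Smo exceeded Gli3 in 12, Gli3 exceeded Boc in 11, and Boc exceeded Ptch1 in 14. The ranges over libraries of all neighbours overlapped except those of Boc and Ptch1. The means of Smo, Gli3 and Boc each lay within 1 SD of Gli3 (46.4 per kb) from the next. Ptch1 was above Sufu in 7 of 14 libraries and Gli1 above Hhip in 8, so that neither pair had an order.

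**Figure D1:**
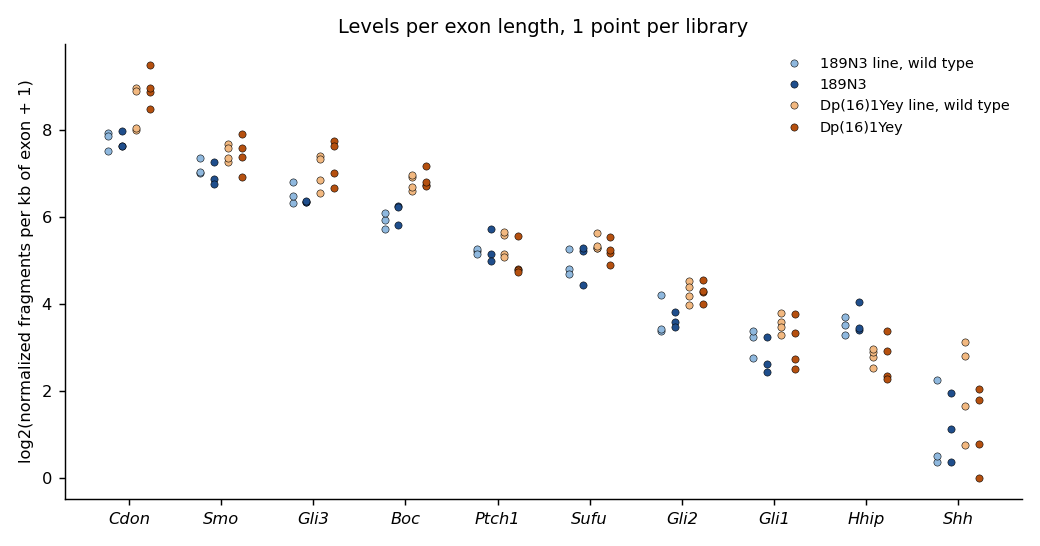
Levels of the 10 genes per exon length on the y axis, as log2 of normalized fragments per kb plus 1, in order of their mean along the x axis; each point is 1 library, coloured by group. Cdon, with a mean of 349 per kb, stands at the top and Shh, with 2.28 per kb, at the bottom, and the points of Ptch1 and Sufu lie at the same height.

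The first question was whether an extra copy of Dyrk1a alone, or of the whole region, moved these genes. No difference passed the test. In limma with Benjamini-Hochberg adjustment, 0 of the 9 tested genes passed an adjusted p of 0.05 in either model, as did 0% of all 35899 loci tested in 189N3 and 0% of 36024 in Dp(16)1Yey/+. The adjusted test thus did not call Dyrk1a in 189N3, nor any of the 85 tested genes of the triplicated region in Dp(16)1Yey/+. At an unadjusted p under 0.05 the count of the Hedgehog genes was also 0 of 9 in both models, where 1.87% and 3.53% of all loci passed. In none of the 9 genes were the groups apart, against 4.98% of all loci in 189N3 and 2.45% in Dp(16)1Yey/+. Neither edgeR nor DESeq2 on the recovered fragments called any of the genes. Without Dp(16)1Yey/+ replicate 0 the unadjusted count in that model was 3 (Ptch1 and Gli1 lower, Cdon higher), beside 4567 of all 36100 loci. Without littermate replicate 0 of that line it was 1 (Cdon), beside 1032 of all 35987 loci. With all libraries 1273 of 36024 loci passed unadjusted. The adjusted count of the 9 genes in limma stayed at 0. The median difference over the 9 genes was -0.03 in 189N3 and -0.02 in Dp(16)1Yey/+ on the log2 scale, beside -0.04 and 0.03 over all loci tested.

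**Figure D2:**
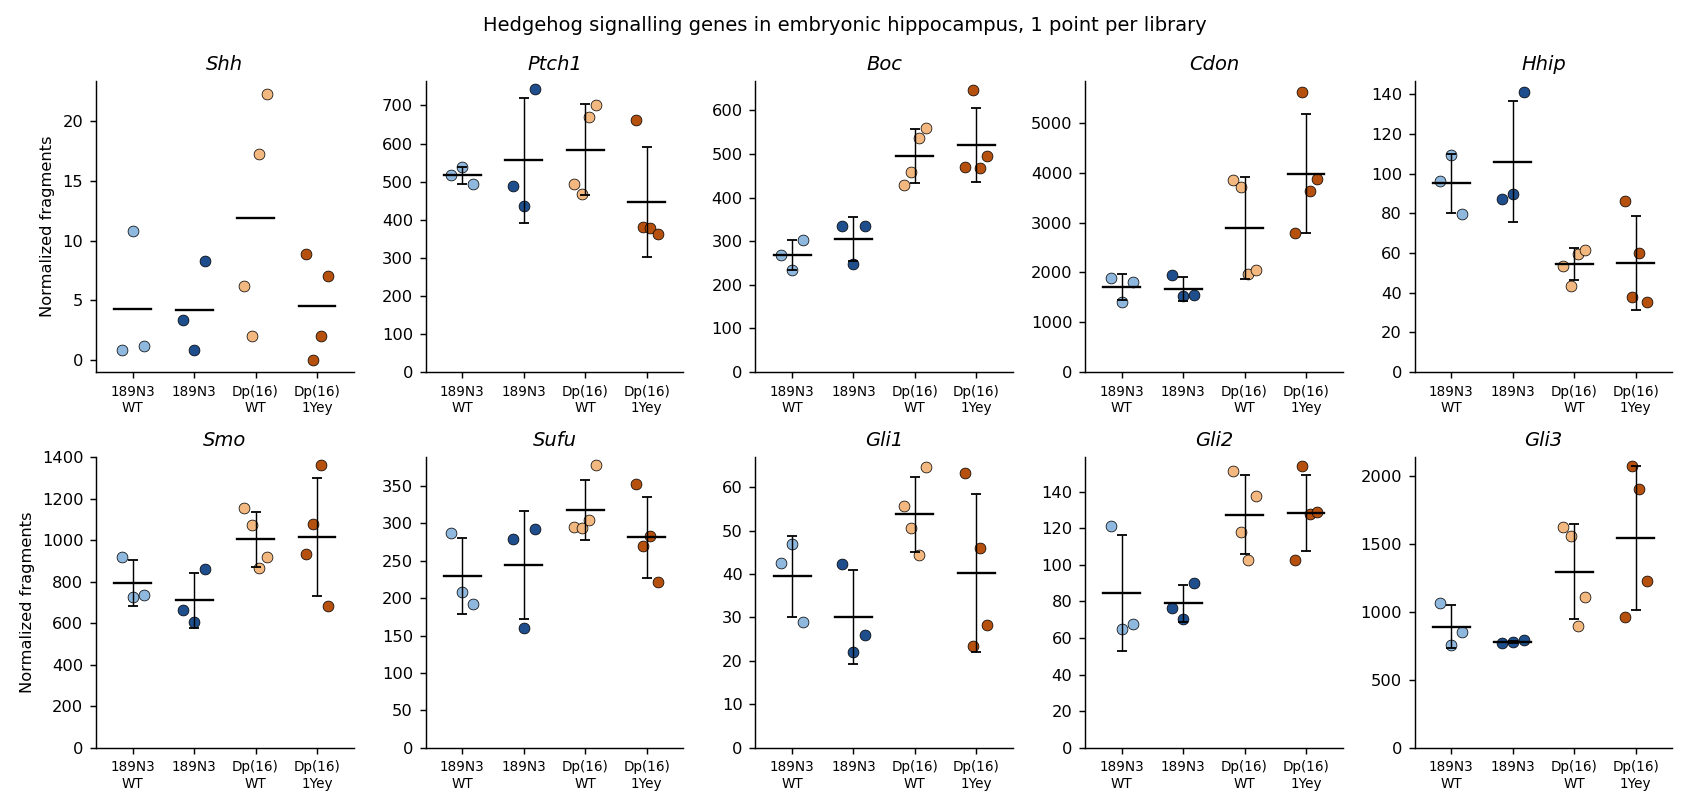
Normalized fragments (y axis, linear, a separate scale for each gene) of the 10 genes in the 4 groups along the x axis; points are libraries, horizontal lines group means and vertical bars SD, left out for Shh. Transgenic and littermate points overlap in all 10 genes, whereas Boc and Cdon sit higher in both groups of the Dp(16)1Yey line than in both groups of the 189N3 line.

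Ptch1, the receptor and a target of the pathway (chr13:63508328-63573598, minus strand), was measured at 489, 436 and 742 normalized fragments in 189N3 and at 518, 539 and 494 in littermates. The Dp(16)1Yey/+ libraries had 662, 382, 378 and 363, against 495, 468, 670.3 and 702. In both models the groups overlapped, through the lone high value of replicate 0 in Dp(16)1Yey/+ and of replicate 2 in 189N3. The difference was 0.07 (SE 0.25) in 189N3 and -0.41 (SE 0.23, 95% interval -0.92 to 0.09, adjusted p = 0.909 in limma) in Dp(16)1Yey/+. Without Dp(16)1Yey/+ replicate 0, which had the highest dosage of the triplicated region, the latter was -0.62 (95% interval -1.03 to -0.20), with an adjusted p of 0.374 in limma. It was -0.35 without the library labelled replicate 1. All 4 oligodendrocyte precursor markers had differences below 0 in Dp(16)1Yey/+, with a median log2 difference of -0.56, 0 below an unadjusted p of 0.05 and sums of 360.2 to 1023 against 547 to 1073, and their part was not tested. Exact permutation gave p = 0.171 with all libraries, where 4 against 4 cannot go below 0.0286.

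Gli1, a transcriptional activator that is itself a target of the pathway (chr10:127329882-127341974, minus strand), rested on 20 to 64 fragments in a library. It was measured at 42.3, 22.0 and 25.9 in 189N3 and at 42.5, 46.9 and 29.0 in littermates. The Dp(16)1Yey/+ libraries had 63.3, 23.5, 45.9 and 28.2, and their littermates 55.6, 50.5, 44.3 and 64.7. Means were lower in both models, but the groups overlapped. The log2 difference was -0.41 (95% interval -1.12 to 0.31) in 189N3 and -0.50 (95% interval -1.17 to 0.17, adjusted p = 0.909 in limma) in Dp(16)1Yey/+. Leaving out Dp(16)1Yey/+ replicate 0 gave -0.75, and leaving out the library labelled replicate 1 gave -0.29.

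Hhip, a membrane protein that binds and sequesters Hedgehog ligands (chr8:79965851-80058006, minus strand), is the other target among the 10. Its values were 87.1, 89.7 and 141 in 189N3 and 96.2, 109 and 79.8 in littermates, with a log2 difference of 0.13 (SE 0.28). Dp(16)1Yey/+ libraries had 86.0, 37.6, 60.2 and 35.2 against 53.6, 43.5, 59.4 and 61.7, a difference of -0.08 (SE 0.29). The Dp(16)1Yey/+ libraries lay on both sides of their littermates. None of the 3 targets, Ptch1, Gli1 and Hhip, passed the test in either model.

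Among the coreceptors, Cdon (chr9:35421128-35507652, plus strand) varied most between libraries. It was at 1942, 1526 and 1544 in 189N3 against 1889, 1412 and 1809, a log2 difference of -0.03 (SE 0.23). In Dp(16)1Yey/+ it was at 2794, 5632, 3632 and 3878 against 3862, 3711, 1973 and 2059. The difference of 0.48 (SE 0.28, 95% interval -0.12 to 1.09, adjusted p = 0.909 in limma) did not pass the test, and the littermates themselves split into a high and a low pair. The value of 5632 came from the library labelled replicate 1, whose summed markers of cycling cells (Mki67, Top2a, Ccnb1 and Cdk1, all 4 measured and none at 0) stood at 47983, against 14204 to 26152 elsewhere. Without this library the difference was 0.30, and the part of cycling cells in it was not tested. Boc (chr16:44485049-44558897, minus strand) was at 335, 247 and 334 in 189N3 against 268, 234 and 303. Boc was at 469.7, 646, 468 and 495 in Dp(16)1Yey/+ against 429.6, 458, 538 and 559. Its differences of 0.18 (SE 0.25) and 0.06 (SE 0.17) were within the spread.

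Smo and Sufu, the membrane transducer (chr6:29735503-29761365, plus strand) and the cytoplasmic repressor of Gli proteins (chr19:46396896-46488804, plus strand), gave log2 differences of -0.17 (SE 0.24) and 0.06 (SE 0.29) in 189N3. The differences in Dp(16)1Yey/+ were -0.02 (SE 0.21) and -0.19 (SE 0.18). Smo ranged from 605 to 1362 over all libraries and Sufu from 161 to 378. Gli2, the main activator (chr1:118834132-119053619, minus strand), ranged from 65.0 to 154 and differed by -0.05 (SE 0.29) and 0.01 (SE 0.20). Gli3, the main repressor in the dorsal forebrain (chr13:15463235-15730026, plus strand), was at 773, 776 and 789 in 189N3 against 1066, 759 and 848, and at 964, 2072, 1905 and 1228 in Dp(16)1Yey/+ against 1623, 1558, 896 and 1106. The 189N3 values lay inside the range of their littermates, while of the Dp(16)1Yey/+ values 2 lay inside the range of theirs and 2 above it. The log2 differences were -0.18 (SE 0.23) and 0.22 (SE 0.27), the latter being 0.06 without the library labelled replicate 1 and 0.43 without replicate 0. RNA levels do not show how much of Gli2 or Gli3 protein is in the repressor form.

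**Figure D3:**
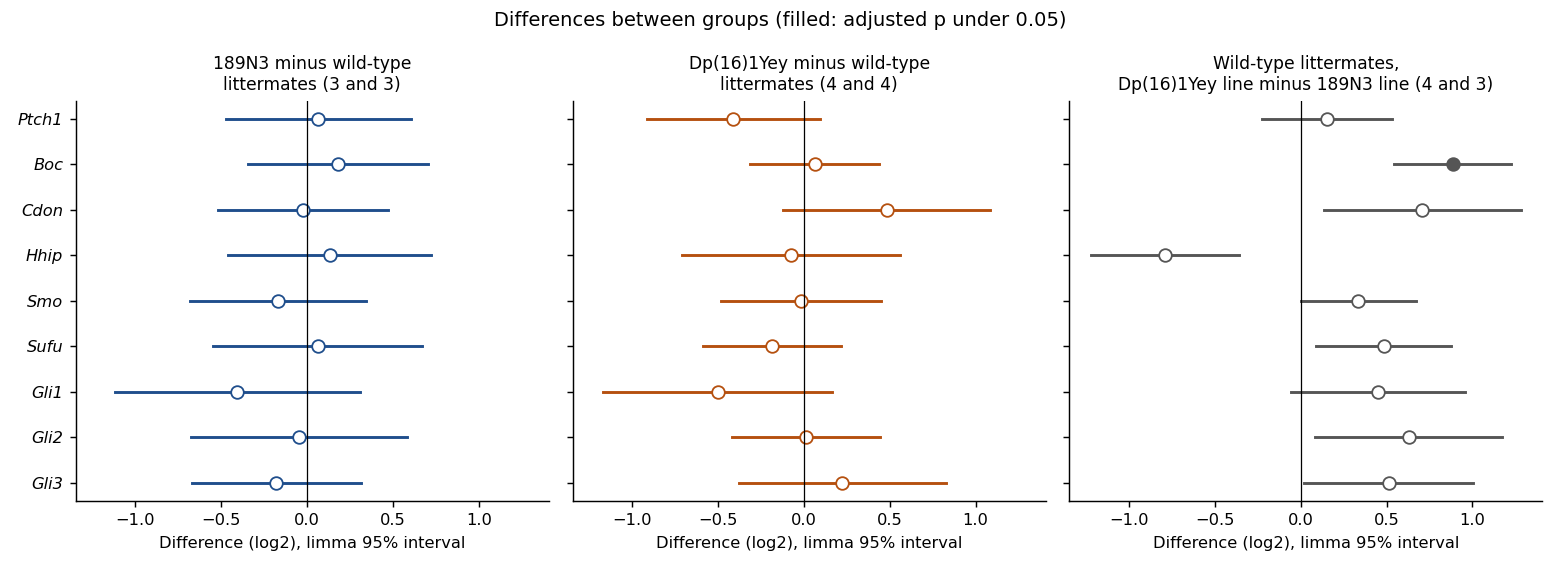
Log2 differences (x axis) of the 9 tested genes (y axis) in 189N3, in Dp(16)1Yey/+ and between the wild-type littermates of the 2 lines; points are limma estimates, bars 95% intervals, and a filled point has an adjusted p under 0.05. Every interval in the 2 models crosses 0, and Boc among the wild types is the only filled point.

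The models were also compared with each other as an interaction, the difference of the 2 differences. Of the 9 genes 0 passed an adjusted p of 0.05 in limma, as for 0% of all 36045 loci, and 0 passed unadjusted, where 2.66% of all loci did. Cdon gave 0.51 (95% interval -0.30 to 1.31), Ptch1 -0.48 (95% interval -1.20 to 0.25) and Gli3 0.40 (95% interval -0.39 to 1.20). The intervals of the other 6 genes also included 0. With 1 library left out, Cdon ranged from 0.33 (without the library labelled Dp(16)1Yey replicate 1) to 0.67 (without littermate replicate 0 of that line). Ptch1 ranged from -0.68 (without Dp(16)1Yey/+ replicate 0) to -0.25 (without 189N3 replicate 2). Gli3 ranged from 0.24 (without the library labelled Dp(16)1Yey replicate 1) to 0.61 (without Dp(16)1Yey/+ replicate 0). The interaction of the oligodendrocyte precursor markers was below 0 for all 4, with a median of -1.06 and 1 below an unadjusted p of 0.05. The medians of the erythroid, skin and connective tissue lists were larger in size, at 2.60, 2.22 and 1.31. Of their genes, 5 of 5, 4 of 5 and 2 of 6 were below that threshold. The part of these lists was not tested.

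The wild-type littermates of the 2 lines were compared to show how far control levels differed. Line, litter, dissection and library preparation cannot be told apart in this comparison, which shares its libraries with those above. Of the 9 genes 8 were higher in the Dp(16)1Yey/+ littermates, and 1, Boc, passed the adjusted threshold in limma, beside 3.75% of all 36047 loci. At an unadjusted p under 0.05 there were 7 genes, beside 26.0% of all loci. In 4 genes the groups did not overlap, beside 25.5% of all loci: Boc, Cdon and Sufu were higher (14.7% of all loci) and Hhip lower (10.8%). Exact permutation gave p = 0.0571 for each of the 4, the smallest that 3 against 4 samples allow.

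Boc was at 429.6 to 559 in Dp(16)1Yey/+ littermates and at 234 to 303 in 189N3 littermates, a 1.85-fold difference (log2 0.88, SE 0.15, adjusted p = 0.0324 in limma). The call was lost when any 1 of the 7 libraries was left out, with log2 differences of 0.79 to 0.98, since adjusted p then lay between 0.0549 and 0.135 in limma. It was also lost when each nearly alike pair was taken as 1 sample (adjusted p = 0.236 in limma). The transgenic libraries, which this test did not use, fell on the same sides: all 8 libraries of the Dp(16)1Yey line lay between 429.6 and 646, and all 6 of the 189N3 line between 234 and 335. Cdon was the other gene whose lines did not overlap, with 1973 to 5632 against 1412 to 1942, a log2 difference of 0.71 (SE 0.26) between wild types. Over all loci tested, the lines did not overlap in 4.69%, and were higher in the Dp(16)1Yey line in 3.41%. Boc lies on chromosome 16, 31.0 Mb proximal to the triplicated region, and its wild-type littermates carry no duplication.

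Hhip was the lone gene lower in the Dp(16)1Yey/+ littermates, at 43.5 to 61.7 against 79.8 to 109 (log2 -0.79, SE 0.19, adjusted p = 0.0525 in limma). Of 18 alternatives, 2 called it, DESeq2 and quantile normalization. With any 1 library left out, its adjusted p lay between 0.0674 and 0.170 in limma. With the transgenic libraries included the lines overlapped in Hhip, at 35.2 to 86.0 in the Dp(16)1Yey line and 79.8 to 141 in the 189N3 line. The remaining differences between wild types were 0.63 for Gli2, 0.51 for Gli3, 0.48 for Sufu, 0.45 for Gli1, 0.34 for Smo and 0.15 for Ptch1. Marker lists moved with the lines as well. All 3 intermediate progenitor markers (Eomes, Neurog2 and Btg2; none at 0) were higher in the Dp(16)1Yey/+ littermates, 2 of them with an adjusted p under 0.05 in limma, and their sum stood at 3154 to 6072 in the 8 libraries of this line and 1836 to 2550 in the 6 of the other. Connective tissue markers, all 6 lower with 3 called, summed to 499 to 1171 in these littermates and 2018 to 5664 in those of 189N3. All 5 erythroid markers measured were lower with 4 called, and all 5 tested skin markers were lower with 2 called. Their part in the differences of Boc, Cdon and Hhip was not tested.

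Variation between libraries of the same group was examined in values centred on the mean of each group, over 14 libraries and 36 pairs of genes, with 100000 permutations within groups. The highest relation was that of Ptch1 and Hhip (Pearson r = 0.84, adjusted permutation p = 0.0313). The relation held within each line (r = 0.90 and 0.82) and was weaker without the 2 libraries farthest from the median (r = 0.64). Spearman's rho was 0.71, with an adjusted permutation p of 0.110, so that it did not pass by rank. The third target, Gli1, had r = 0.43 with Ptch1 and 0.65 with Hhip, with adjusted permutation p of 0.552 and 0.306. These r were 0.03 and 0.07 within the 189N3 line and 0.63 and 0.89 within the other. Sufu, which is not among the 3 targets, had r = 0.67 with Ptch1 (adjusted permutation p = 0.171). Cdon and Gli3 had r = 0.83 (rho 0.75), Cdon and Hhip r = -0.66 (rho -0.67), and Ptch1 and Cdon r = -0.69 (rho -0.58), with adjusted permutation p of 0.128, 0.128 and 0.171 for r and 0.125, 0.112 and 0.235 for rho. The nearly alike littermates were counted as separate samples; if they are not independent, these p-values are too small.

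These relations can be followed in the values. Ptch1 was high (662, 670.3, 702 and 742) in Dp(16)1Yey/+ replicate 0, in littermate replicates 2 and 3 of that line and in 189N3 replicate 2. These 4 libraries had the highest sums of ventral telencephalon markers, 2013 to 2354 against 1010 to 1654 in the other 10. In the Dp(16)1Yey line the same libraries had oligodendrocyte precursor sums (Olig1, Pdgfra, Sox10 and Cspg4, all 4 measured, none at 0) of 989.8 to 1073, against 360.2 to 565 in the other 5. Cdon and Gli3 ran the other way there: the 5 libraries low in precursor markers had Cdon at 3632 to 5632 and Gli3 at 1228 to 2072, and the 3 high in them had Cdon at 1973 to 2794 and Gli3 at 896 to 1106. Across all 14 libraries, centred by group, the mean of the precursor markers had r = 0.93 with Ptch1 (rho 0.81) and r = -0.82 with Gli3 (rho -0.80), with adjusted permutation p of 0.0616 for both r and 0.119 for both rho. Without the 2 farthest libraries r was 0.84 and -0.84. Within lines, r with Ptch1 was 0.89 and 0.95, and r with Gli3 was -0.43 and -0.91.

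**Figure D4:**
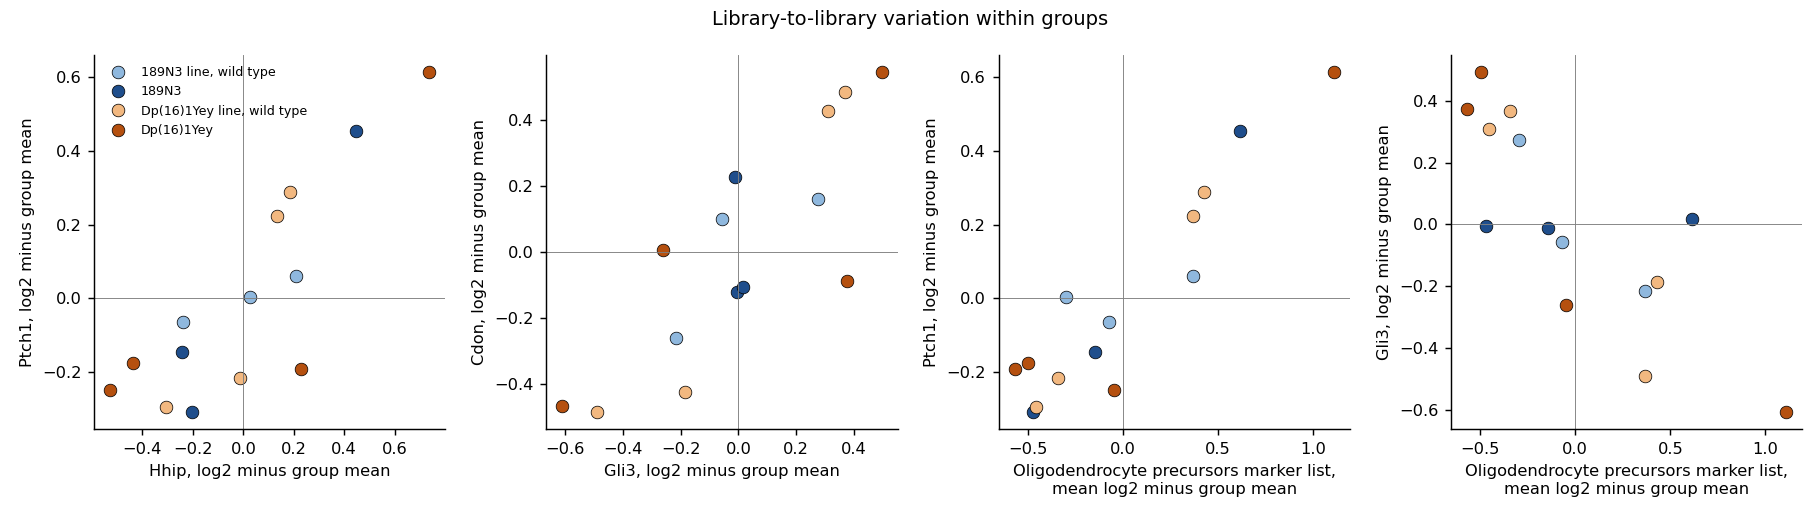
Variation within groups, each axis a log2 value minus its group mean, each point 1 library coloured by group: Ptch1 against Hhip, Cdon against Gli3, and Ptch1 and Gli3 against the mean of 4 oligodendrocyte precursor markers. Ptch1 rises with Hhip (r = 0.84) and with the precursor markers (r = 0.93), and Gli3 falls with the latter (r = -0.82).

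These marker relations were chosen after the values were seen and belong to 117 relations, 9 genes against 13 marker lists. By r, 3 had an adjusted permutation p of 0.0261, those of Smo with radial glia (r = 0.88, rho 0.89), Boc with skin (r = 0.86, rho 0.84) and Gli3 with connective tissue (r = 0.81, rho 0.74). By rho only that of Smo with radial glia passed, with an adjusted permutation p of 0.0468. Leaving out the 2 farthest libraries gave r of 0.81, 0.84 and 0.72. Within lines r was 0.85 and 0.94 for Smo, 0.87 and 0.88 for Boc, and 0.64 and 0.88 for Gli3. The part of each cell type in the levels of these genes was not tested.

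The promoters of Ptch1 and Hhip are shown because this pair had the highest r among the pairs of genes. Each window holds 250 bases before and 50 after the RefSeq start (GRCm38.p6), 5′ to 3′ on the minus strand, at chr13:63565686-63565985 and chr8:80057959-80058258. They were searched on both strands for GACCACCCA, the sequence bound by Gli proteins.
Ptch1: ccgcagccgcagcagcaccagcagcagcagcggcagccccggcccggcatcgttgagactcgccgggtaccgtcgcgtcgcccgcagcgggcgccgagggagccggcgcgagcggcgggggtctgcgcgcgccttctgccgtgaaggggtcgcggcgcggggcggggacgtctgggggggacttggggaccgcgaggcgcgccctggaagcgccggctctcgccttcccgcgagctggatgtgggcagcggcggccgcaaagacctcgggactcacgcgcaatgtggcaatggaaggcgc
Hhip: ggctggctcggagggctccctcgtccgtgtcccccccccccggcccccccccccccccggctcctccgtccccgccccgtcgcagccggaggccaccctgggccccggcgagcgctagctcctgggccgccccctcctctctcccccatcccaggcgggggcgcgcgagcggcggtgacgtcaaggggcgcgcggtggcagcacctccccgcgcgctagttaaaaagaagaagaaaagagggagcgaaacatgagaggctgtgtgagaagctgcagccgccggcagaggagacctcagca
Windows were found for 7 of the 10 genes, Ptch1, Cdon, Hhip, Smo, Sufu, Gli2 and Gli3, and 0 of the 7 held these letters, so nothing is in capitals. Of all 32851 windows 0.253% held them. The RefSeq starts of Ptch1 and Cdon lie 7.86 and 30.9 kb inside the GENCODE loci given above, so that these windows are not those of the outermost start. The windows of Ptch1 and Hhip were 76.3% and 73.7% G and C.

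The loci most like 3 of the genes in centred log2 values over the 14 libraries were sought among 11245 named loci with a mean of at least 100. For Ptch1 these were Prkrip1 (r = 0.99), Ttc7b, Mgat5, Mapk4 and AK185681 (r = 0.98 each). For Gli1 they were Tert (r = 0.96), Zfp687 (0.89), Lrrc45 and Arid3b (0.88 each) and Npr2 (0.87). For Shh, whose counts are sparse, they were Rasgrp2 (0.95), Kifc2 and Rims1 (0.94 each), Dgkh and 3110047P20Rik (0.93 each). They are the highest of many values and are given as a description.

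Beyond the 10 genes, 5 lists covered ligands and release, receptors and coreceptors, membrane and ciliary transduction, Gli regulation, and Hedgehog-responsive genes of neural tissue. They held 53 genes, of which 51 were named in the table and 45 tested in each model. In limma 0 of 45 passed an adjusted p of 0.05 in either model or in the interaction. At an unadjusted p under 0.05 there was 1 gene in 189N3 and 3 in Dp(16)1Yey/+ (2.22% and 6.67% of those tested, beside 1.87% and 3.53% of all loci). Differences were above 0 for 31 of 45 in 189N3 and below 0 for 31 of 45 in Dp(16)1Yey/+. Their medians were 0.12 and -0.09, beside -0.04 and 0.03 over all loci tested. Members of the pathway that the tissue hardly held were Ihh and Dhh, the other ligands (0 to 3.96 and 0 to 5.41), and the ventral midline factors Nkx2-2 (0 to 10.1) and Nkx6-2 (0 to 3.02).

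By list, ligands and release had 4 of 5 genes higher in 189N3 and 0 of 4 in Dp(16)1Yey/+. Receptors and coreceptors had 0 of 4 and 2 of 4 higher. Membrane and ciliary transduction had 9 of 14 and 5 of 14, Gli regulation 12 of 14 and 4 of 14, and responsive genes 6 of 8 and 3 of 9. No gene of any list passed an adjusted p of 0.05 in limma in either model.

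Olig2, which specifies oligodendrocytes and motor neurons, was at 111, 91.4 and 173 in 189N3 and at 62.4, 85.7 and 66.5 in littermates. The groups did not overlap (log2 0.76, SE 0.29, unadjusted p = 0.0196, adjusted p = 1.00 in limma). All 4 oligodendrocyte precursor markers were higher in 189N3, with 0 below an unadjusted p of 0.05 and sums of 969.5 to 2048 against 863 to 1295, and their part was not tested. In Dp(16)1Yey/+, in which Olig2 lies inside the triplicated region, it was at 142, 35.3, 19.4 and 57.4 against 46.4, 35.6, 89.6 and 74.8, a log2 difference of -0.24 (SE 0.52).

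Cdk6, a kinase of the G1 phase, was in Dp(16)1Yey/+ at 276, 255, 201.0 and 263 against 163, 163, 132 and 178, all 4 above all littermates (log2 0.64, SE 0.18, unadjusted p = 0.00362, adjusted p = 0.909 in limma). Zic2, a zinc finger protein related to the Gli factors, was at 326, 189, 323 and 201.3 against 387, 342, 407 and 387, all 4 below. Its log2 difference was -0.59 (SE 0.21, unadjusted p = 0.0170, adjusted p = 0.909 in limma). Iqce, a ciliary protein that anchors the Evc complex near Smo, was at 413, 224, 339 and 269 against 413, 385, 414 and 489 (log2 -0.48, SE 0.20, unadjusted p = 0.0369, adjusted p = 0.909 in limma). None of the 4 genes had groups apart in both models.

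**Figure D5:**
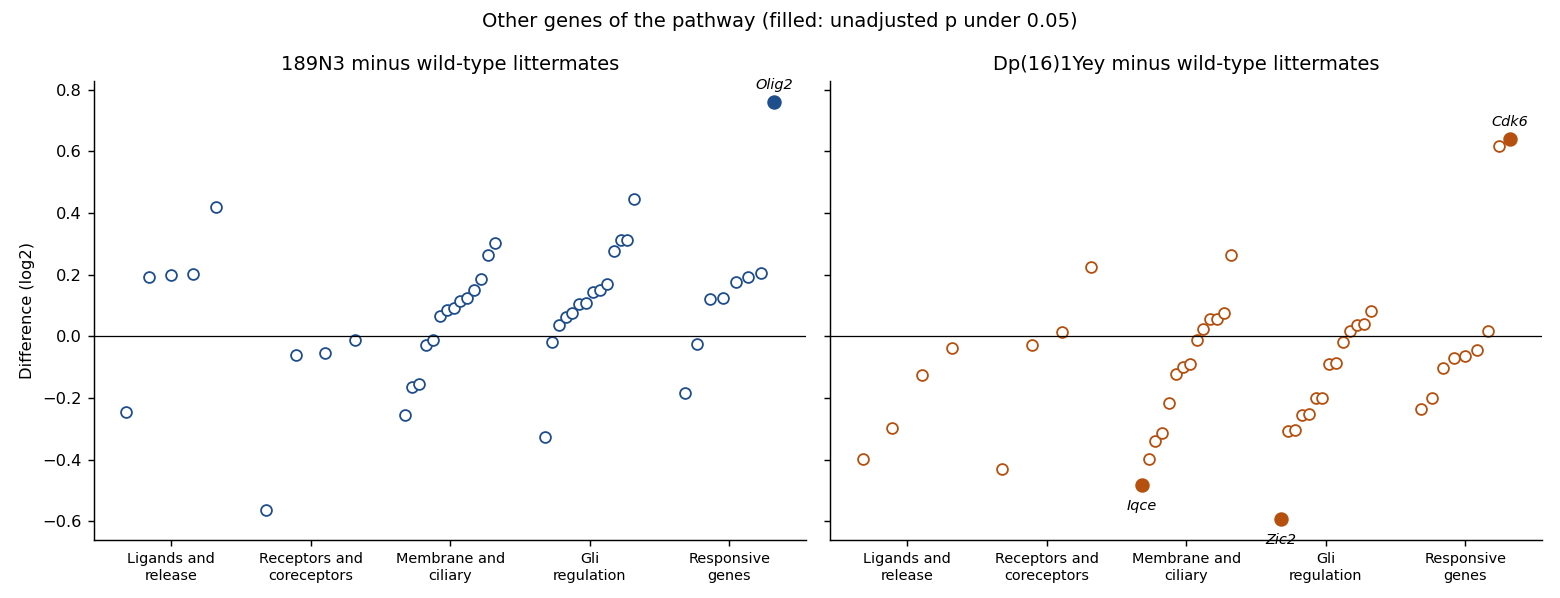
Log2 differences (y axis) of the other pathway genes by list (x axis) in 189N3 and in Dp(16)1Yey/+; each point is 1 gene, and filled points have an unadjusted limma p under 0.05. Olig2 (0.76) stands alone in 189N3, and Cdk6 (0.64), Iqce (-0.48) and Zic2 (-0.59) are marked in Dp(16)1Yey/+.

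Between the wild types, 5 of 45 pathway genes were called in limma, all higher in the Dp(16)1Yey/+ littermates (11.1% of those tested, beside 3.75% of all loci). They were Scube3, which helps release the ligand (log2 0.82), Hes1, a transcriptional repressor of progenitors (0.81), the kinase Csnk1d (0.70), Iqce (0.69) and Zic2 (0.63). Zic2 and Iqce were in these littermates at 381 ± 27.3 and 426 ± 44.7 (SD, n = 4), and in those of 189N3 at 247 ± 34.7 and 263 ± 23.0 (SD, n = 3). The smallest adjusted p among the pathway genes was 0.0383 in limma. Calls over all loci fell from 1351 to 28 with nearly alike littermates averaged, and to between 13 and 78 with 1 library left out. These 5 genes were not examined under those alternatives.

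At the level of isoforms, the 10 loci held 41 assembled transcripts, 25 of which were tested in each model. In limma 0 of 25 passed an adjusted p of 0.05 in either model, beside 0.0366% of 60141 and 0.0214% of 60652 isoforms. At an unadjusted p under 0.05 there was 1 in each, beside 2.56% and 3.48%. That of Dp(16)1Yey/+ was the Gli2 isoform uc007cim.1, which held 77.8% of the signal of its locus (log2 -0.58, SE 0.23, adjusted p = 0.945 in limma). In 189N3 it was a minor Cdon isoform with 0.776% of its locus. Isoform values are estimated shares of fragments, and the Gli2 isoform ranged from 0.133 to 151 between libraries whose Gli2 locus ranged from 65.0 to 154.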

How the data were processed

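RNA of embryonic hippocampus was sequenced as paired reads from stranded libraries in 14 samples. Per the labels and methods, the authors aligned reads to mm10 with TopHat and Bowtie, and assembled and quantified transcripts with the Cufflinks suite; versions are not given in the sources used here. The deposited gene table holds signal values, which are fragments per locus divided by 1 factor per library, so that whole fragments were recovered for 100% of values. Signal values of isoforms are estimated shares of them. The deposited files name loci by assembly identifiers; 49063 loci were matched to the deposited map through their isoform sums and 17495 named. Coordinates and exon lengths come from GENCODE vM21 (GRCm38). Members and lists were chosen with earlier results of these data known. The text names all 10 members, list genes with an unadjusted p under 0.05 in either model, and the 5 loci most like Shh, Ptch1 and Gli1. Scube3, Hes1, Csnk1d, Ihh, Dhh, Nkx2-2 and Nkx6-2 were named after their values were seen.

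Groups came from the labels. Values were tested as log2(value + 1) with limma 3.58.1 (trend, R 4.3.3), with a mean of at least 10 and two-sided Benjamini-Hochberg p over all loci; fold changes are on that scale and understate those of low genes. Exact permutation tests used SciPy 1.17.1. Alternatives were other pseudocounts, filters and normalizations, edgeR 4.0.16, DESeq2 1.42.0, a replicate block, each library left out, 1 fit of all groups and averaged littermates. Data were simulated with the same spread beyond counting noise for every gene, and 200 genes with a mean of at least 100 were changed 2-fold. At the size of the 189N3 comparison (36115 genes) 82.5% were recovered. At that of Dp(16)1Yey/+ (35338 genes) 94.0% were recovered. Recovery at the levels and spread of the 10 genes was not tested. Gli1, at 20 to 64 fragments in a library, lay below the mean of 100. Depth was 20809135 to 29098454 fragments, and limits on a count of 0 cover counting error only. 1 gene of the pathway lists, left out of their counts, is not reported here.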

Additional observations from a re-analysis of the deposited data

Results flagged for a closer look

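Within the group of Dp(16)1Yey/+ libraries, Ptch1 in replicate 0 stood apart at 662 normalized fragments. On the scale of log2(value + 1), its gap to the next library took 0.916 of the range of the group. That is past the 95% limit of Dixon's test for 4 samples. Among the wild-type littermates of this line, Sufu in replicate 3 stood apart at 378, with a gap of 0.861 of the range on the log2 scale. Groups of 4 libraries were examined for 10 genes in 2 genotypes, 20 in all, and chance alone gives about 1 in 20.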

How the results depend on the processing

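In the 2 models and their interaction, 0 members were called under every alternative run. Between wild types, 1 member was called in the analysis reported, 2 (Boc and Hhip) with quantile normalization or DESeq2, and 0 with the replicate block, with 1 fit of all 4 groups or with nearly alike littermates averaged. Leaving out 1 library gave 0 to 0 calls there, while calls over all loci dropped from 1351 to between 13 and 78. Those calls were 3282 with DESeq2, 614 with no filter, 75 with the replicate block, 38 with 1 fit of all 4 groups and 28 with averaged littermates. Over its 19 alternatives the adjusted p of Boc ran from 0.0010 to 0.236 in limma, edgeR or DESeq2.

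Directions turned for differences near 0. Cdon in 189N3 was 0.017 with median-ratio size factors, and Gli2 in 189N3 was 0.0042 with quantile normalization. Gli2 in Dp(16)1Yey/+ was -0.019 with median-ratio size factors, -0.024 with DESeq2, -0.029 with edgeR and -0.0011 with averaged littermates, and its interaction was -0.00014 with quantile normalization. Leaving out 1 library turned others: in 189N3, Ptch1 ran from -0.16 to 0.22, Cdon from -0.155 to 0.055, Hhip from -0.091 to 0.253, Sufu from -0.092 to 0.338 and Gli2 from -0.21 to 0.24. In Dp(16)1Yey/+, Boc ran from -0.046 to 0.123, Hhip from -0.32 to 0.10, Smo from -0.17 to 0.16 and Gli2 from -0.086 to 0.113. In the interaction, Hhip ran from -0.453 to 0.015, Smo from -0.0041 to 0.33, Gli1 from -0.34 to 0.17 and Gli2 from -0.23 to 0.22. With the longest transcript as length, 2 genes, Ptch1 and Sufu, changed places. The causes were not tested.

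Samples with the same number did not deviate together. The correlation of their deviations was -0.03, -0.32 and -0.15 in the 189N3 line. It was -0.41, -0.07, -0.45 and -0.16 in the other line. These values do not settle whether samples of the same number share a litter, which no label gives. With the replicate block the members called stayed at 0 in both models, and over all loci calls went from 0 to 72 in 189N3 and stayed at 0 in Dp(16)1Yey/+. DESeq2 called 15 and 8 loci in the models, edgeR 0 in both, and median-ratio size factors gave 4 in 189N3. Depth limits Shh, with 91 fragments in all, and Gli1, with 594.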
